A study of Mus musculus with 2 samples.

Results

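The genes of mitosis, Top2a, Mki67, Cdk1, Ccnb1, Ccnb2, Ccna2, Aurkb, Plk1, Bub1 and Cenpe, were followed in DNase-seq of the neonatal mouse cortex. They are a list of 10 genes taken by name and function among 21938 protein-coding genes. The tissue was left cerebral cortex, taken from female mice of strain B6CASTF1/J, an F1 hybrid of a pair of inbred strains, at 4 days after birth. There were 2 libraries, replicate 1 and replicate 2, from animals that the labels number separately under 1 strain-level donor. There was 1 group, with no treatment and no other age, so nothing here compares conditions and no test between groups was possible. DNase I cuts DNA where chromatin is open, and a region cut more than its surroundings is called a DNase I hypersensitive site (DHS). Here a shared DHS is the union of overlapping calls that come from both libraries, a promoter DHS lies within 1 kb of a transcription start site (TSS) of a protein-coding gene, and any other DHS is distal and was given to the nearest such TSS. The signal value is the authors' tag density of a call, whose scaling is not stated.

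The products of these genes act when a cell duplicates and divides. Cdk1 is the kinase that drives entry into mitosis, Ccnb1 and Ccnb2 are its B-type cyclins, and Ccna2 is the cyclin of S and G2 phase. Transcription of such genes is low in resting cells and rises towards mitosis. Many of their promoters carry CCAAT boxes, which the factor NF-Y binds, and a short element called the cell cycle genes homology region (CHR), which the MuvB complexes read: as DREAM they hold the genes down in resting cells, and with B-Myb and FoxM1 they activate them. In the neonatal cortex the neurons have left the cell cycle, and division goes on in progenitors and glia.

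A few promoters show best what the deposited footprints lay on, and their upstream sequences are printed here from RefSeq on GRCm38.p6. The letters are those of the reference assembly and not of either parental allele of the F1 animals. Each line runs 5′ to 3′ on the gene's own strand and stops before any annotated exon of a protein-coding gene. Capitals mark CCAAT, the CHR (TTTGAA or TTCGAA) and, in Cenpe, the cyclic AMP response element (CRE, TGACGTCA), on either strand, so that ATTGG is CCAAT and TTCAAA is TTTGAA read from the other strand.
Top2a, chr11:99024190-99024389, minus strand: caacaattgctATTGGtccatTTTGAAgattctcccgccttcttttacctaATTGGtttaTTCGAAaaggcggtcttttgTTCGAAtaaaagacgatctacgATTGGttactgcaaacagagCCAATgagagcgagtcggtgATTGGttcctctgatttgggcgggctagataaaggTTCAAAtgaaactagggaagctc
Mki67, chr7:135716380-135716579, minus strand: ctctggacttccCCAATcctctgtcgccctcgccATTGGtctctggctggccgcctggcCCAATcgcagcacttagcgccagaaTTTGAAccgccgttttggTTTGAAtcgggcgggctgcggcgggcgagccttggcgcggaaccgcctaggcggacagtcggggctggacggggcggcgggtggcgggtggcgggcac
Cdk1, chr10:69352939-69353112, minus strand: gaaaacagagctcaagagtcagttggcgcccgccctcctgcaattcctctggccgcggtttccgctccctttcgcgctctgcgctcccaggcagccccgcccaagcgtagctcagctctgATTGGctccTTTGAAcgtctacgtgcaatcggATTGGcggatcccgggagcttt
Ccnb2, chr9:70421555-70421754, minus strand: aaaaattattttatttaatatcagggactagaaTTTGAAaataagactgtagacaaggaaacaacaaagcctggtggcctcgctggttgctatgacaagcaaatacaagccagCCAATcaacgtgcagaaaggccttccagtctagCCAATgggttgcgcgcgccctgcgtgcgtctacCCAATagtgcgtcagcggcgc
Cenpe, chr3:135212363-135212536, plus strand: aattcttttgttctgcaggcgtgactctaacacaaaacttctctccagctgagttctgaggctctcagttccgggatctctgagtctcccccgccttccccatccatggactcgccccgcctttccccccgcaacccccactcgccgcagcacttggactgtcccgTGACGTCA
In 4 genes a CHR lay at or just after the annotated TSS, and 30 bases around each of these are shown with the CHR in capitals.
Cdk1, chr10:69352910-69352939, minus strand: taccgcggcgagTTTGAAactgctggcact
Ccnb2, chr9:70421533-70421562, minus strand: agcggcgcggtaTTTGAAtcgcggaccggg
Plk1, chr7:122159453-122159482, plus strand: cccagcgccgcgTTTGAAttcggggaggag
Bub1, chr2:127831828-127831857, minus strand: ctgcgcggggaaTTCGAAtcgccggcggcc

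The libraries held 59355 (replicate 1) and 46566 (replicate 2) calls in the shorter of their 2 peak lists, with median signal values of 0.556 and 1.45. The shorter list was used, and was taken to be the stricter one, since no header names the thresholds of the 2 lists. Signal values under 100 steps were whole multiples, within 0.05 of a step, of a single step of 0.00467 and 0.00788, so a density per 1000000 tags would put replicate 1 at 214 and replicate 2 at 127 times that number, a depth that no header states. Because the scaling is not stated, a gene was ranked only within its own library, as its percentile among the genes with a promoter call there. The libraries shared 26014 DHSs, 14585 of them at promoters. Promoters of the marker genes of cortical neurons carried a shared DHS at 6 of 8 genes, those of radial glia and intermediate progenitors at 5 of 8, of oligodendrocyte precursors at 2 of 5, of astrocytes at 1 of 4, of microglia at 0 of 5, of endothelium at 1 of 5 and of erythroid cells at 1 of 5. Over all protein-coding genes the share was 55.7%, with 90.7% for CpG-richer promoters (defined below) and 24.1% for CpG-poorer ones. In the order given, CpG-richer promoters numbered 3 of 8, 5 of 8, 2 of 5, 0 of 4, 0 of 5, 2 of 5 and 0 of 5. The sets thus differ in this class, and their counts do not measure cell types. The tissue was not sorted, so an open promoter in fewer cells and a less open promoter in more cells cannot be told apart.

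Every one of the 10 mitotic promoters was open in both animals. A promoter call was present at 10 of 10 genes in replicate 1, against 57.0% of all protein-coding genes, and at 10 of 10 in replicate 2, against 60.2%. A shared promoter DHS was likewise present at 10 of 10, against 55.7%. Of the 10 promoters, 9 were CpG-richer, meaning an observed to expected CpG ratio of 0.6 or more within 500 bp of the TSS. Among all CpG-richer genes 90.7% had a shared promoter DHS, so 9 of 9 is near the background of that class and is not a result about these genes. Cdk1, with a ratio of 0.525, was the only CpG-poorer member, and its promoter was open where 24.1% of CpG-poorer genes had a shared promoter DHS. That class takes in every ratio under 0.6, so it is not closely matched to Cdk1. The Cdk1 DHS had 64.7% GC, beside a member median of 64.5%. With the stronger 50% of each list alone, the shared DHS was still there at 10 of 10 genes, against 50.7% of all genes.

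The level of opening was middling, and it spread widely among the 10 genes. The median member signal value was 1.45 in replicate 1, beside 1.56 over all 12512 genes with a promoter call, and 3.96 in replicate 2, beside 4.09 over 13203. The median percentiles were 44.0 and 48.5. Ranked among CpG-richer genes only, the 9 CpG-richer members had median percentiles of 34.5 and 32.8, below the middle of that class in both libraries.

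**Figure D1:**
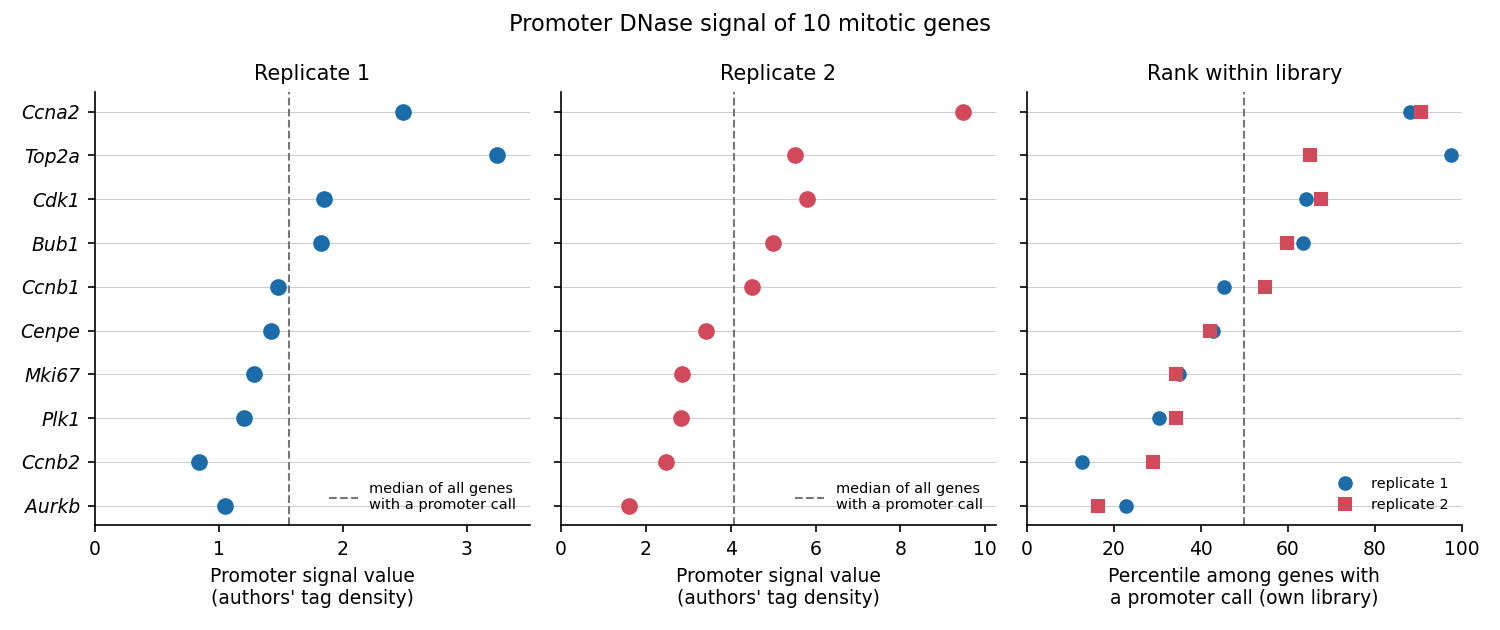
Promoter signal value of each mitotic gene in replicate 1 (left) and replicate 2 (centre), with the median of all genes with a promoter call as a dashed line, and the percentile within each library (right). Ccna2 and Top2a lie above the median in both libraries, Ccnb2 and Aurkb at the low end.

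Ccna2, the S and G2 cyclin, had a promoter signal value of 2.48 in replicate 1 and 9.48 in replicate 2, at percentiles 88.0 and 90.6. Top2a, the topoisomerase that untangles sister chromatids, had 3.25 and 5.51, at percentiles 97.6 and 65.1. Cdk1 had 1.84 and 5.80, at percentiles 64.3 and 67.6. These 3 genes held the first 3 ranks of the 10 in both libraries, Top2a first in replicate 1 and Ccna2 first in replicate 2. Bub1, a kinase of the spindle checkpoint, followed at 1.83 and 5.00, at percentiles 63.4 and 59.8. In replicate 1 the signal values of Cdk1 and Bub1 were nearly equal.

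The B-type cyclins of Cdk1 lay lower than their kinase and apart from each other. Ccnb1 had 1.48 in replicate 1 and 4.50 in replicate 2, at percentiles 45.3 and 54.8. Ccnb2 had 0.841 and 2.47, at percentiles 12.6 and 29.0, the lowest of the 10 in replicate 1 and next to lowest in replicate 2. Cenpe, a kinesin motor of the kinetochore, had 1.42 and 3.43, at percentiles 42.7 and 42.1. Mki67, which encodes the proliferation marker Ki-67 that coats mitotic chromosomes, had 1.28 and 2.84, at percentiles 35.0 and 34.3. Of the widely used marker genes of dividing cells, Top2a thus lay among the first 3 of the list and Mki67 at rank 7 in both libraries.

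The kinases Plk1 and Aurkb lay low in both libraries. Plk1, the polo-like kinase, had 1.20 and 2.84, at percentiles 30.3 and 34.2. Its DHS also covers the start of Gm15489, an antisense gene on the opposite strand 38 bp away, so the signal cannot be divided between them. No other gene had a TSS within 1 kb of a member TSS; the next was a processed pseudogene, Gm43033, 3550 bp from Cenpe. Aurkb, the kinase of the chromosomal passenger complex, had 1.05 and 1.61, at percentiles 22.7 and 16.4, the lowest of the 10 in replicate 2. The order of the 10 genes was similar in both libraries (Spearman rho 0.952 over 10 genes, beside 0.908 over 12272 genes with a call in both; genes of the same libraries are not independent replicates). The ratio of replicate 2 to replicate 1 had a median of 2.57 over the 10 genes and 2.74 over all genes. Top2a (1.70) and Aurkb (1.54) had the lowest ratios of the list and Ccna2 (3.82) the highest, so the position of Top2a within the list is the one that differed most between the animals.

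The open region was short at all 10 promoters. Shared promoter DHSs of the members were 200 to 380 bp wide, with a median of 280 bp, and all lay under the median of 400 bp of the 14585 shared promoter DHSs, of which 48.5% were at most 380 bp wide. Ccnb2 had the shortest, 200 bp from base -113 to 86 relative to its TSS (chr9:70421461-70421660), with 113 bases upstream and 87 in the 5′ UTR. Ccnb1 had the longest, 380 bp from -270 to 109 (chr13:100786461-100786840). The authors' false discovery rate for cut rates is listed per run of bases where it is under 0.05. Of the 2001 bases around a member TSS, a median of 666 (replicate 1) and 770.5 (replicate 2) were listed. Genes with a shared promoter DHS, a group set by the peak lists, had 958 and 1027. All protein-coding genes, a group set without those lists, had 548 and 629, so the members lay between these groups. When signal times width was summed over a promoter's calls, the median percentiles of the members fell to 29.0 and 20.7. Ranked by height alone, as above, they were 44.0 and 48.5.

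**Figure D2:**
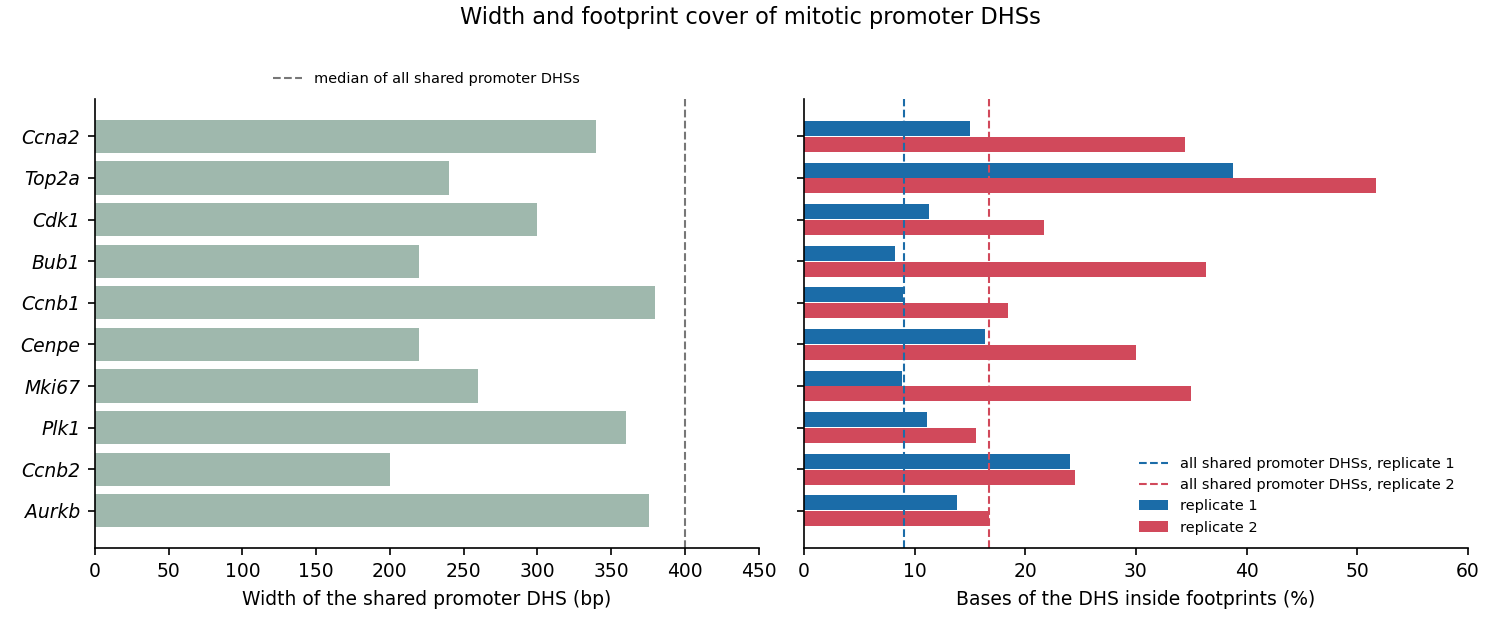
Width of each shared promoter DHS (left, bp) with the median of all shared promoter DHSs as a dashed line, and the percent of its bases inside footprints in each library (right) with the percent over all shared promoter DHSs as dashed lines. All 10 widths lie under the 400 bp median, and Top2a has the highest cover in both libraries, 38.8% and 51.7%.

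The shared DHSs sat on the gene start, with 1 exception. Those of Top2a (chr11:99024141-99024380, -191 to 48), Cdk1 (chr10:69352801-69353100, -162 to 137), Ccna2 (chr3:36571961-36572300, -150 to 189), Bub1 (chr2:127831761-127831980, -115 to 104) and Cenpe (chr3:135212421-135212640, -116 to 103) ran from upstream sequence into the 5′ UTR, and in Cdk1 also 35 bases into an intron. The DHS of Plk1 (chr7:122159201-122159560, -238 to 121) reached 18 bases of coding sequence. That of Aurkb (chr11:69045574-69045949, -73 to 302) lay mostly downstream, with 179 bases of 5′ UTR and 124 of intron. In replicate 2 alone, the call of Aurkb began after the TSS (14 to 273) and that of Ccnb1 ended before it (-170 to -11). The DHS of Mki67 (chr7:135716381-135716640) lay wholly upstream, from -279 to -20, and all of its 3 CCAAT and 2 CHR matches lay inside it. Cdk1 had a second shared promoter DHS in an intron, with signal values of 0.668 and 1.19, below its main one in both libraries.

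Footprints, short stretches inside a cut region that are protected from the enzyme, were present at every member. A footprint common to both libraries was present in the promoter DHS of 10 of 10 members, against 51.9% of all protein-coding genes. Among genes with a shared promoter DHS, as all members are, the share was 93.2%, so 10 of 10 is near that background and is not a result about these genes. The 10 DHSs held 41 footprints in replicate 1 (1.42 per 100 bp, 14.8% of bases) and 52 in replicate 2 (1.80 per 100 bp, 27.0% of bases). All shared promoter DHSs had 0.887 and 1.32 per 100 bp, and 9.07% and 16.8% of bases. Shorter DHSs have denser footprints, and in the 6530 shared promoter DHSs of 200 to 380 bp, a comparison chosen after the values were seen, 11.8% and 21.5% of bases lay in footprints. The pooled share of the members lay above both backgrounds, and without Top2a it was 12.7% and 24.7%. Gene by gene, 5 of 10 members in replicate 1 and 7 of 10 in replicate 2 lay above the share of DHSs of like width. Of the members' footprints, 65.9% (replicate 1) and 44.2% (replicate 2) overlapped one of the other library, beside 59.4% and 37.8% in all shared promoter DHSs.

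Top2a stood first in footprint cover. Footprints covered 38.8% of its DHS in replicate 1 and 51.7% in replicate 2. In replicate 2 a single footprint of 74 bases ran from -117 to -44, and only 6 of the 224652 footprints of that library, this one included, were that wide. In replicate 1 the same stretch held 3 footprints, from -116 to -106, -103 to -87 and -79 to -44, the last of 36 bases, a width reached by 0.847% of the 153911 footprints of that library. Inside this stretch lay 3 CCAAT matches that start 20 bases apart, at -98, -78 and -58, each wholly inside a footprint in both libraries, and the edge of a CHR at -120. In the printed line they are the last 3 capitalized runs before the final CHR, which itself, at -23 to -18, was under no footprint of either library. Top2a held 6 CCAAT and 4 CHR matches in its 300-base window, the most of the 8 genes with a sequence.

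The other members had less cover than Top2a in each library. Ccnb2 was the steadiest, with 24.0% and 24.5% of bases in footprints, and 4 footprints of each library were in common. Ccna2 had 15.0% and 34.4%, with a footprint of 24 bases in replicate 1 and of 40 bases in replicate 2 at the TSS. Cover was 8.18% and 36.4% in Bub1, 8.85% and 35.0% in Mki67, and 8.95% and 18.4% in Ccnb1, so in these 3 genes replicate 1 lay just under the 9.07% of all promoter DHSs. In replicate 2 the low end was Plk1 at 15.6% and Aurkb at 16.8%. Cenpe had 16.4% and 30% and Cdk1 11.3% and 21.7%. In each of the 10 genes cover was higher in replicate 2, the library with more footprints.

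**Figure D3:**
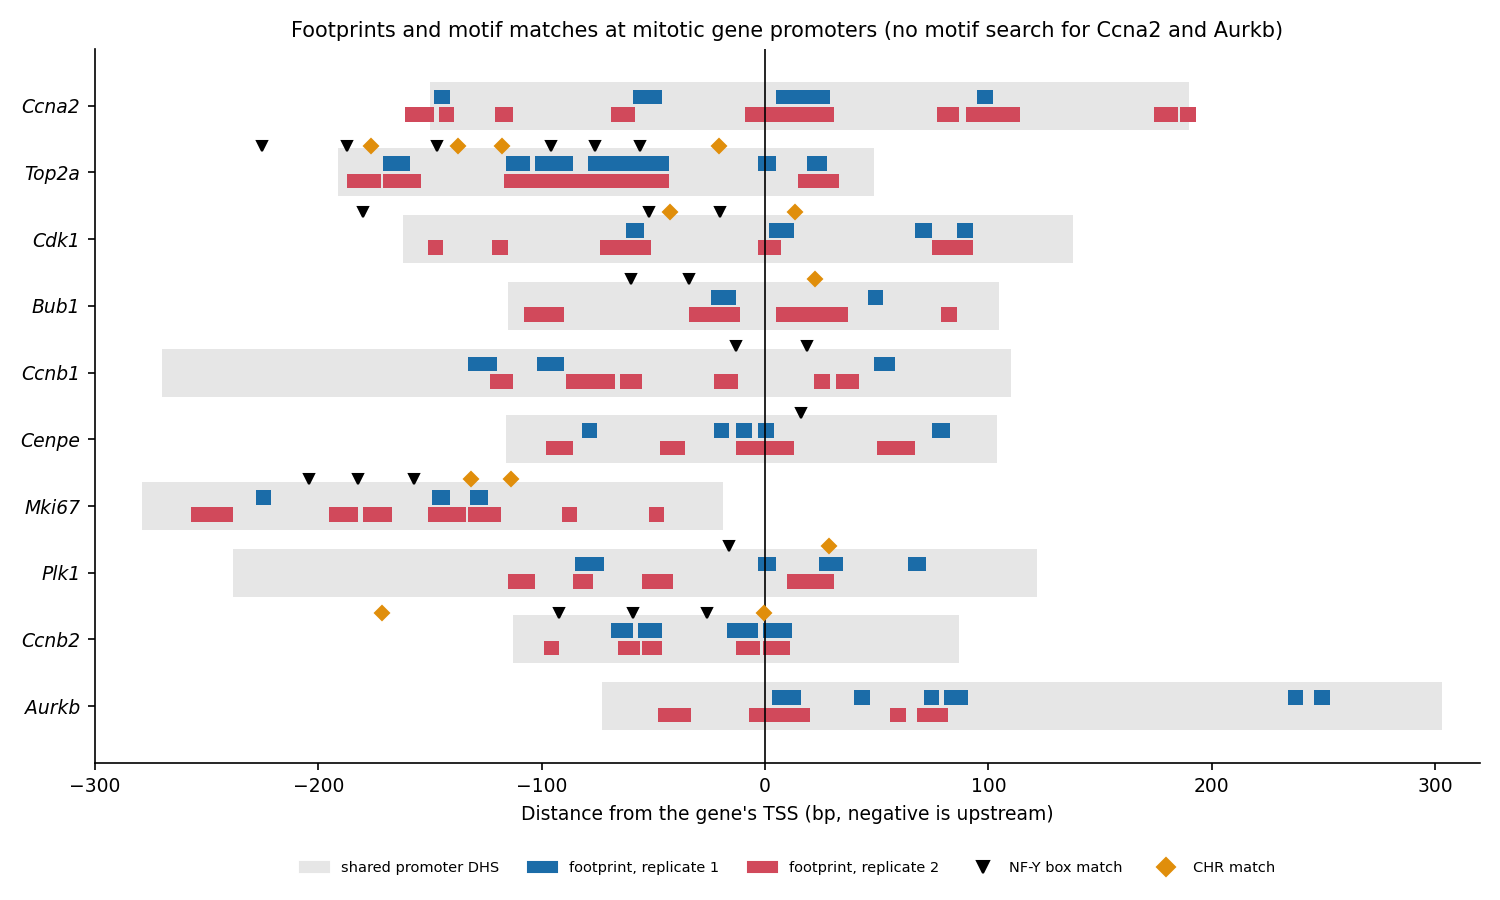
Shared promoter DHS (grey), footprints of replicate 1 (blue) and replicate 2 (red), and matches to the CCAAT motif (NF-Y box, black triangles) and the CHR (orange diamonds), by distance from the TSS in bp. In Top2a the widest footprint, 74 bases in replicate 2, lies under 3 NF-Y boxes, and the DHS of Mki67 lies wholly upstream of the TSS.

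The motifs of the cell cycle promoters were frequent. Of the 10 genes, 8 had a sequence in the RefSeq table, the others being Ccna2 and Aurkb. The window ran from 250 bases before to 50 after the RefSeq start, and both strands were searched for CCAAT, the CHR (TTTGAA or TTCGAA), E2F sites (TTTCCCGC, TTTGGCGC or TTTCGCGC), the GC box (GGGCGG), the CRE (TGACGTCA) and the TATA box (TATAAA). None of the members' matches shared bases with another, and TTCGAA and the CRE, which read the same on both strands, were counted once. CCAAT was present in 8 of 8 windows, against 38.2% of 21263 promoter windows and 37.8% of the 12283 windows of genes with a shared promoter DHS. At least 2 CCAAT were present in 6 of 8, against 12.8% and 14.3%. The exceptions, Plk1 and Cenpe, had 1 each.

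The CHR was present in 6 of 8 windows, against 17.6% of all windows and 13.0% of those of genes with a shared promoter DHS. At least 2 CHR matches were present in 4 of 8 (Top2a, Mki67, Cdk1 and Ccnb2), against 2.20% and 1.22%. CCAAT and a CHR together were present in 6 of 8, against 7.11% and 5.43%. Ccnb1 and Cenpe had no match to these letters, which says only that the letters are not in this window. The GC box was in 8 of 8 (46.2% of all windows, 64.0% of those with a shared DHS), an E2F site only in Cdk1 (2.41% and 3.51%), a CRE only in Cenpe (2.23% and 3.26%) and a TATA box in 0 of 8 (12.6% and 6.46%).

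Distances between the matches, from start to start, varied. In Ccnb2 the 3 CCAAT started 33 and 33 bases apart, all in the same direction, and the CHR at the TSS started 25 bases after the last. In Mki67 the 3 CCAAT started 22 and 25 bases apart, and the CHR matches 25 and 43 bases after the last CCAAT. In Cdk1 the CCAAT at -48 from the RefSeq start was followed by a CHR 33 bases on, and the CCAAT before it lay 32 bases upstream, as did the pair in Ccnb1. The other Cdk1 spacings were 128 bases between CCAAT matches and 9 bases from a CCAAT to a CHR. Plk1 had 44 bases and Bub1 56 bases from its CCAAT to its CHR, and the CCAAT pair of Bub1 lay 26 bases apart. In Top2a the CCAAT started 38, 40, 51, 20 and 20 bases apart, and its CHR matches 10, 9, 29 and 35 bases after the nearest CCAAT upstream. These spacings were read after the matches were known and were given no background.

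Most CHR matches of these genes lay at a footprint. For the members only matches within the searched window around the RefSeq start were counted, and 11 CHR matches of it lay inside the 8 DHSs. Of these 11, 7 (63.6%, exact 95% binomial interval 30.8 to 89.1) were overlapped by a footprint of either library. The share was 21.6% of 1766 in all shared promoter DHSs and 26.9% of 635 in those of 200 to 380 bp. These backgrounds took matches anywhere in a DHS, so distance from the TSS was not matched. Footprints of both libraries overlapped 4 of 11 (36.4%), against 4.53% and 7.24%. Each of the 6 genes with a CHR had at least 1 under a footprint: in both libraries at Top2a (-120), Mki67 (-134), Ccnb2 (-3) and Plk1 (26), in replicate 1 alone at Cdk1 (11) and in replicate 2 alone at Bub1 (20), by the first base relative to the TSS. Most of these overlaps were partial, and 3 of the 11 matches lay wholly inside a footprint. Matches within 1 gene share a DHS and are not independent, and the interval covers counting error only.

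For CCAAT the interval of the members took in both backgrounds. Here and for the other motifs, member matches again came from the searched window and background matches from whole DHSs. Matches within 1 gene are again not independent, and the intervals cover counting error only. Footprints of either library overlapped 10 of 19 matches (52.6%, interval 28.9 to 75.6), against 33.6% of 9015 and 39.3% of 3490 in DHSs of like width. Of the 10, the 3 of Top2a and 1 of Ccnb2 (-61) were under footprints of both libraries. In Mki67 only 1 of 3 CCAAT matches was overlapped, in replicate 2 and by the ends of separate footprints on either side. The GC box had 8 of 12 (66.7%, interval 34.9 to 90.1), against 54.1% of 30973 and 61.3% of 9409 in DHSs of like width. Footprints of both libraries overlapped 2 of its 12 matches (16.7%), against 21.5% and 29.2%. The CRE of Cenpe, at -8 to -1, was overlapped in both libraries, as were 55.8% of 557 CRE matches in all shared promoter DHSs. Over all 6 motifs 26 of 44 matches were overlapped (59.1%, interval 43.2 to 73.7), against 48.6% of all matches and 54.5% in DHSs of like width. The overlap came mostly from replicate 2: its footprints alone touched 56.8% of the 44 matches and those of replicate 1 alone 27.3%. By library, replicate 1 and replicate 2 touched 4 and 10 of the 19 CCAAT, 2 and 8 of the 12 GC boxes, and 5 and 6 of the 11 CHR matches. The single E2F site, in Cdk1, was under no footprint, beside 45.6% of 793 overlapped in all shared promoter DHSs.

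**Figure D4:**
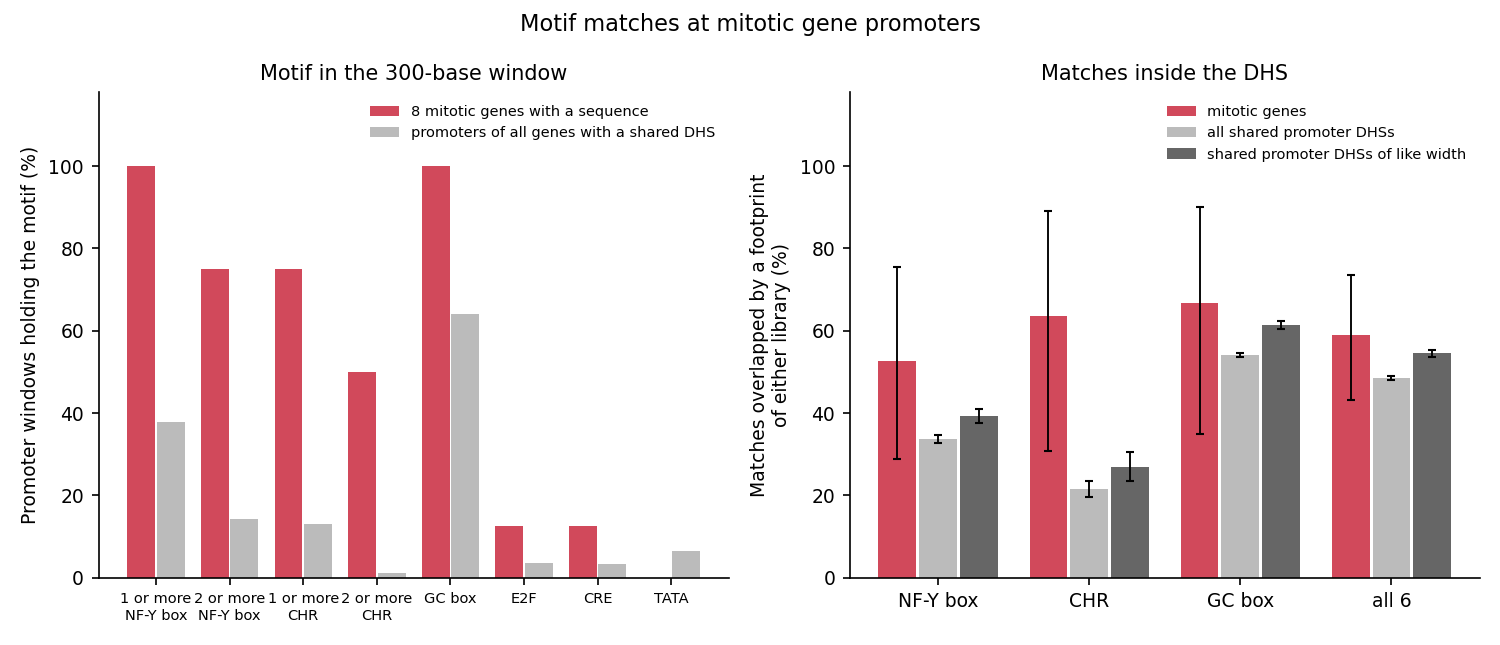
Left, percent of promoter windows holding each motif in the 8 mitotic genes with a sequence and in all genes with a shared promoter DHS (NF-Y box is CCAAT). Right, percent of matches inside DHSs overlapped by a footprint of either library, with exact 95% binomial intervals that cover counting error only. Member matches are those of the searched window, and background matches lie anywhere in a DHS. Among the motifs plotted the CHR shows the widest gap, 63.6% against 21.6% and 26.9%.

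Distal DHSs lay at 3 of the genes. Mki67 had 8 distal shared DHSs, Aurkb 7 and Cdk1 1, and the other 7 genes had none. At least 1 was nearest to 29.9% of all protein-coding genes, so 3 of 10 is at the background. Per gene, the members had 1.6 on average and all protein-coding genes 0.521, and 15 of the members' 16 belonged to Mki67 and Aurkb. The stretch of genome nearer to a member TSS than to any other ran from 21.8 kb at Aurkb to 621 kb at Mki67. Top2a, Ccnb1, Ccna2, Plk1 and Bub1, with stretches of 26.6 to 31.1 kb, had no distal call in either library, nor had Cenpe with 226 kb. At 0.419% of all protein-coding genes (92) at least 7 distal shared DHSs were found, and Aurkb and Mki67 were among them.

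The DHSs of Aurkb were close, and most were stronger than its own promoter. They lay 3836 to 9576 bp upstream, between Aurkb and its upstream neighbour Ctc1, a subunit of the telomere-binding CST complex; the farthest overlapped an exon of Ctc1. The nearest to Aurkb (chr11:69041701-69041920) reached 2.16 in replicate 1 and 5.39 in replicate 2, beside 1.05 and 1.61 at the promoter of Aurkb. The next (chr11:69040861-69041160, 4636 bp upstream) had 1.77 and 4.21, with 4 and 7 footprints. Of the 7, 6 exceeded the promoter in both libraries, and the exception, 8141 bp upstream, had 0.953 and 1.41. Which gene these sites act on was not measured.

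**Figure D5:**
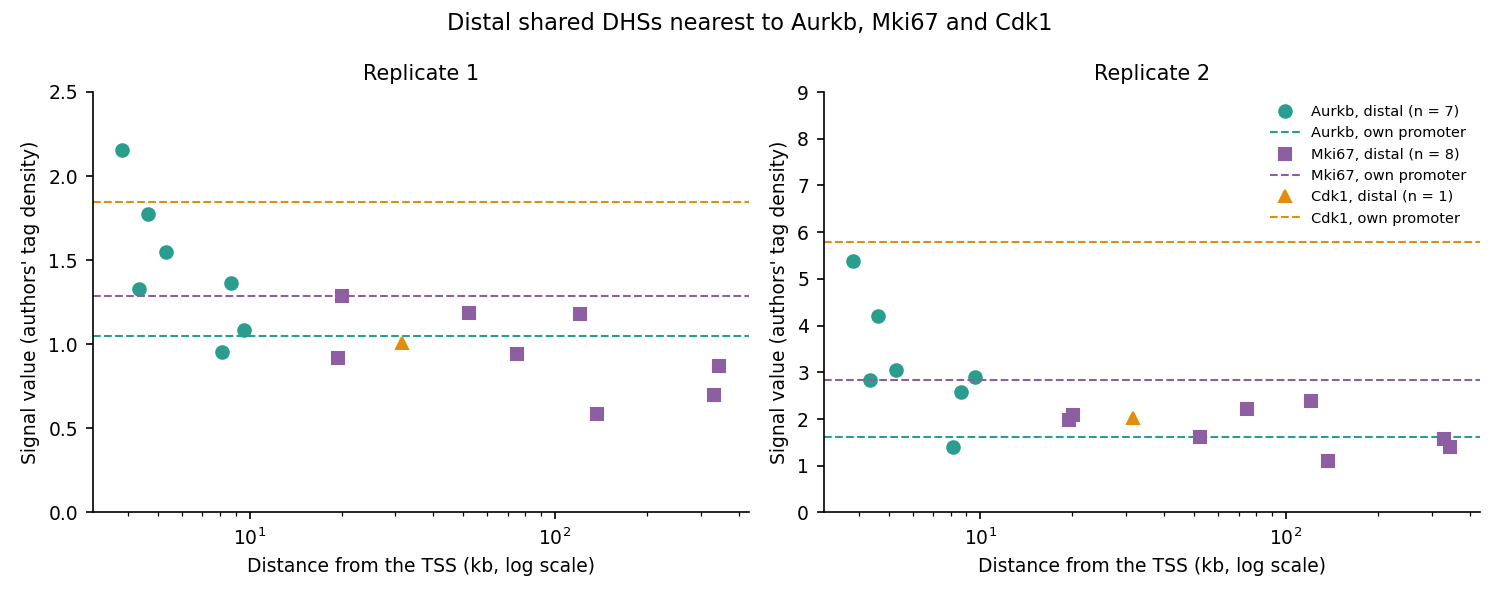
Signal value of each distal shared DHS of Aurkb, Mki67 and Cdk1 in replicate 1 (left) and replicate 2 (right) by distance from the TSS (kb, log scale), with the signal value of each gene's own promoter as a dashed line. The sites of Aurkb lie within 9576 bp and mostly above its promoter, and those of Mki67 do not exceed its promoter.

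The 8 distal DHSs of Mki67 were far and none exceeded its promoter. They lay outside protein-coding genes, 19510 to 344340 bp upstream. Signal values were 0.584 to 1.28 in replicate 1 and 1.10 to 2.39 in replicate 2, beside 1.28 and 2.84 at the promoter. A lincRNA or pseudogene TSS was nearer than Mki67 to all 8, so with the TSSs of every gene type the distal count of the 10 genes fell from 16 to 7, all of them at Aurkb. The site at chr7:135853521-135853780 covered such a TSS, that of the lincRNA 6330420H09Rik, 31 bp from its midpoint. Replicate 1 also had 11 calls 539436 to 550831 bp upstream, near the lincRNA C030029H02Rik, with signal values of 0.0794 to 0.266, and replicate 2 had none there. The 1 distal DHS of Cdk1 lay 31472 bp downstream, beyond the end of the gene, with signal values of 1.01 and 2.02.

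The wider cell cycle lists were open nearly as a whole, and 3 of the 4 had higher median percentiles than the 10 genes. Of 43 other mitotic genes 42 had a shared promoter DHS, with median percentiles of 59.8 in replicate 1 and 58.5 in replicate 2. Ncapg, a condensin subunit, led with 3.89 and 12.3, and Prc1, which bundles the microtubules of the central spindle, had 3.20 and 10.4. Of 30 G1/S and replication genes 28 had one, with median percentiles of 62.9 and 69.7. Here Cdk4, the kinase of the D-type cyclins, had 2.76 and 12.2, and Mcm5, a subunit of the replicative helicase, 2.74 and 11.3. The 3 genes without one, named because of their small number after the values were seen, had a call in 1 library: Pttg1, which encodes securin, and Ccnd1 in replicate 2 (1.13 and 1.39), and Ccnd2 in replicate 1 (0.892). With the longer peak list of each library all 3 had a shared promoter DHS.

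Genes that regulate or restrain the cycle were open too. All 17 genes of transcription regulators, which include the MuvB, E2F and NF-Y subunits, had a shared promoter DHS, with median percentiles of 51.9 and 52.8. Nfya and Nfyb, subunits of the factor that binds CCAAT, were the highest, with 3.44 and 16.9 for Nfya and 2.60 and 9.53 for Nfyb. All 11 inhibitor genes had one, with lower median percentiles of 29.7 and 35.1. The antiproliferative gene Btg1 had 4.09 and 16.2, and Cdkn2d, an inhibitor of Cdk4 and Cdk6, 3.02 and 11.1. These shares, like those of the 10 genes, are to be read beside the 90.7% of CpG-richer genes, since 88 of the 101 genes in these lists were CpG-richer.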

How the data were processed

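DNase-seq was run on left cerebral cortex from 2 females of strain B6CASTF1/J. Per the file headers, the authors made the files for each library alone, in mm10 coordinates; for aligner and callers, names and versions are not given in the sources used. The deposited peak lists carry a signal value per call, unscaled in the headers. The deposited cut-rate files give false discovery rates (q-values) under 0.05 per run of bases. The deposited footprint files carry a p-value or rate of 0.01 on every line, a threshold, so their intervals alone were used.

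The shorter of the 2 peak lists of each library was used, taken to be the stricter; the longer is called lenient. Calls were shared where they overlapped by 1 bp or more, genes came from GENCODE M21 basic transcripts, and sequences from RefSeq (GRCm38.p6), with Python 3.11.15, numpy 2.4.6, pandas 2.3.3, scipy 1.17.1 and samtools 1.23.1. The scripts were tested on simulated data. The members and lists were chosen with earlier results of these data known, so no list was tested. Named genes were all members, the 2 highest by mean percentile of each other list, any without a promoter call in either library (none) and genes sharing a member's DHS. Alternatives were the lenient list, other windows and overlaps, stronger calls, CpG-richer genes, all transcripts or gene types, other motif windows and each library alone.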

Additional observations from a re-analysis of the deposited data

How the results depend on the processing

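Of 63 alternative values for 12 results, 52 stayed within 1.5 times a count or within the spread between the libraries, and 11 moved. The counts of members with a shared promoter DHS (9 among CpG-richer promoters alone, otherwise 10), with a common footprint (9 or 10), with a CCAAT match (8) and with a CHR match (6) did not move in this sense under the alternatives tried for each. Nor did the counts of the other 4 lists. These were 41 to 43 other mitotic genes, 28 to 30 G1/S and replication genes, 17 transcription regulators and 10 or 11 inhibitor genes. A wider window, the lenient lists, all transcripts or 1 library alone can hardly lower such a count, and a complete list cannot rise. Unmoved counts under those settings carry little weight. The distal count of 16 was 26 with the lenient lists and 7 with the TSSs of every gene type, and lay between 21 and 30 with 1 library left out; 11 of the 30 in replicate 1 are its low calls far upstream of Mki67. The median percentile of 44.0 in replicate 1 was 29.0 by the sum of signal times width, 34.5 among CpG-richer promoters alone and 49.5 with the lenient list. In replicate 2 the 48.5 became 20.7, 32.8 and 52.2. The 59.1% of motif matches overlapped by a footprint was 25% with the whole match inside the footprint, and between 27.3% and 56.8% with 1 library left out. Wholly inside a footprint were 11 of 44 member matches. In all shared promoter DHSs 12240 of 43662 matches were, and in those of like width 4832 of 14295. By that measure the members lay below both backgrounds, whereas the 59.1% lay above both. The cause of these shifts was not tested. No paired analysis was possible because there is 1 group and no comparison between groups. With 2 libraries, the spread between animals rests on a single difference, and how far depth limits the values was not tested.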
